A study of Mus musculus with 6 samples.

Results

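Molecular chaperones are proteins that help other proteins to fold, keep them from aggregating and hand damaged ones on for removal. Heat shock factor 1 (HSF1) is held inactive by chaperones in the resting cell, and when misfolded proteins draw the chaperones away it binds heat shock elements in DNA and switches on the inducible members, above all the HSP70 genes Hspa1a and Hspa1b. The heart keeps a large standing pool of small heat shock proteins at the sarcomere, and misfolded proteins of the endoplasmic reticulum (ER) raise a separate set of chaperones through the unfolded protein response.

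The genes described here were the protein-coding genes of the deposited count table whose symbols name heat shock proteins (Hspa, Hspb, Hspd, Hspe, Hsph and Hsp90), J-proteins (Dnaja, Dnajb and Dnajc), subunits of the cytosolic chaperonin TRiC (Cct2 to Cct8), heat shock factors (Hsf), BAG proteins (Bag1 to Bag6) and Cryab. The symbol pattern found 95 of the 56748 genes in the table. Hsf2bp matched the pattern by its name but encodes a protein that binds HSF2 and is not a heat shock factor. After the filter on low counts 81 of the 95 were tested, among 13888 genes in all. The other 14 (Hsf2bp, Hsf3, Hsf5, Hspb9, Cct6b, Cct8l1, Dnajb3, Dnajb7, Dnajb8, Dnajb13, Dnajc5b, Dnajc5g, Dnajc6 and Dnajc22) had at most 8 counts in any library, and 4 of them (Dnajb7, Dnajb8, Dnajc5b and Dnajc5g) had 0 counts in all 6 libraries.

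The data were RNA-seq counts from 6 mouse hearts, 3 of transgenic mice with extra Pontin in cardiomyocytes (Pontin cTG) and 3 of wild-type littermates (WT). Pontin (gene Ruvbl1) is an ATPase of chromatin-remodelling complexes and of the R2TP complex, which works with HSP90 to assemble other complexes. The transgene was a flag-tagged human Pontin cDNA driven by the mouse α-MHC promoter, so only cardiomyocytes were targeted, while the RNA came from heart tissue with all its cell types. All 6 mice were males on a C57Bl/6 background, 10 weeks old when treatment began, and all received angiotensin II at 1.5 mg/kg body weight/day for 14 days from a mini-osmotic pump. No library came from an untreated mouse, so the comparison asked only whether extra Pontin altered chaperone transcripts in hearts under angiotensin II.

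The libraries held 12436822 to 13194038 counts in WT and 14584102 to 16888124 in Pontin cTG, and the chaperone genes took between 1.36% and 1.50% of them. Mouse Ruvbl1 stood at 218 ± 2.72 normalised counts in the WT hearts and 247 ± 5.79 in Pontin cTG (SD, n = 3 each), and since the transgene is a human cDNA, this count is no direct measure of it. Pontin cTG replicate 2 stood apart from the other libraries on the main axis of variation, at 52.7 against -25.0 to 17.6. The study's methods mention an outlier left out by principal component analysis without naming it, and all 6 libraries were kept here. Nppa, the gene of atrial natriuretic peptide and also a marker of hypertrophy, stood at 7716 normalised counts in that library against 360 to 1842 elsewhere. Of the other atrial markers listed, Myl7 and Sln were at 0 there and Myl4 was at 43.7 against 8.81 to 28.3. Cardiomyocyte markers (Myh6, Tnnt2, Actc1, Tnni3, Ryr2 and Pln) were abundant in every library, with sums from 530053 to 670291. Normalised counts here are counts scaled to the mean effective library size, and TPM values, used to compare genes with each other, are also scaled to gene length.

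In length-scaled terms the transcripts of small heat shock proteins were the largest part of the chaperone transcript pool in these hearts. The 9 Hspb and Cryab genes together made between 48.4% and 55.2% of the summed TPM of all 95 genes in each library. The 13 Hspa genes made between 12.4% and 15.1%, and the 3 HSP90 genes between 9.51% and 11.6%. All Hspa genes are counted as HSP70 here by symbol, including the HSP110-type Hspa4l. TRiC subunits made 4.30% to 5.09%. All 95 genes together summed to 10387 ± 143 TPM in WT and 10782 ± 796 TPM in Pontin cTG (SD, n = 3 each), so the wider spread lay in the transgenic group.

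Cryab, which encodes the desmin- and titin-binding αB-crystallin, was the most abundant member at 1709 ± 19.1 TPM in WT and 1840 ± 286 TPM in Pontin cTG. Hspb7, which is required for cardiac sarcomere upkeep, followed at 1598 ± 38.2 and 1585 ± 92.4 TPM, and its mean WT level was close to that of Cryab. Hspb6 (HSP20), at 958 ± 24.7 TPM in WT, and the constitutive HSP90 gene Hsp90ab1, at 880 ± 45.4 TPM, came next, ahead of the largely constitutive HSP70 gene Hspa8 at 678 ± 23.2 TPM. Hspb8, which works with Bag3 in the removal of damaged filament proteins, stood at 507 ± 43.6 TPM. The mitochondrial HSP70 gene Hspa9, at 385 ± 1.91 TPM, and Hspb1 (HSP25 in the mouse), at 349 ± 33.5 TPM, differed by little more than the spread of Hspb1. The inducible HSP70 genes lay at the other end of this scale, Hspa1a at 2.09 ± 0.416 TPM and Hspa1b at 2.56 ± 0.273 TPM in WT (SD, n = 3 throughout). These levels rest on the gene lengths deposited with the counts. For Hspa8 that length was 4301 bases against 2394 in its longest coding transcript, while for Hspb7 both were 2769. Genes next to each other in this ranking may change places with another choice of length. Of the 100-base windows of each transcript, 62.8% in Hspa8, 48.6% in Hspa1a, 47.5% in Hsp90aa1 and 42.7% in Hspb1 also occur in other genes. The share was over 20% in 9 members, and 0% in Cryab, Hspb6 and Hspb7. How reads there were counted is not known.

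**Figure D1:**
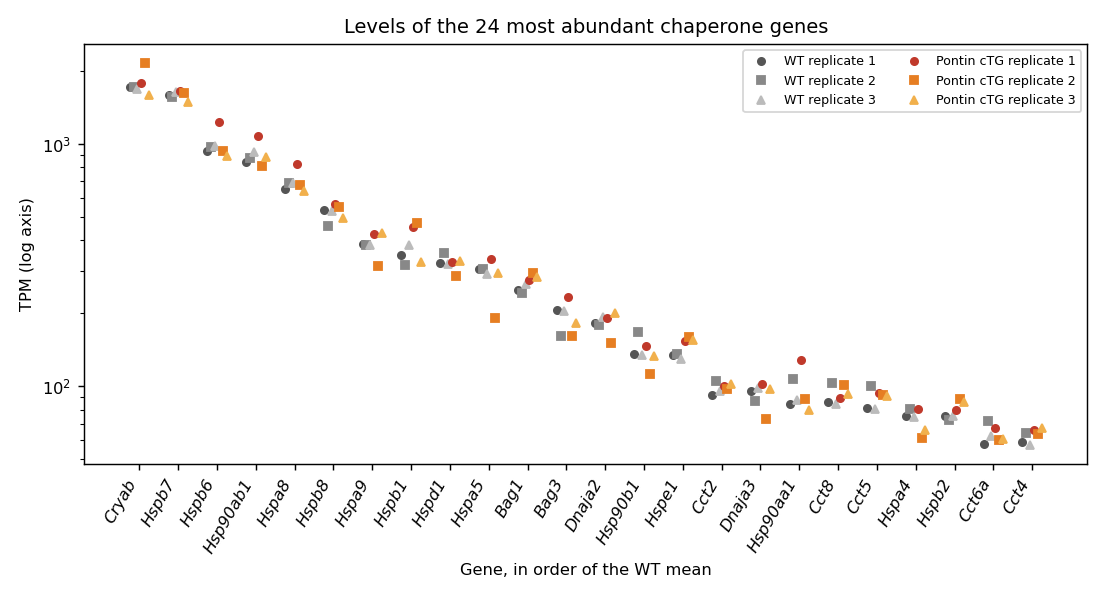
Levels of the 24 most abundant chaperone genes, in TPM on a log axis, with 1 point per library (grey WT, red to yellow Pontin cTG). Cryab and Hspb7 lead at 1709 and 1598 TPM in WT, and the 2 groups lie over each other for nearly all genes.

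No chaperone gene passed the test of genotype after adjustment, though 6 were higher in every Pontin cTG heart and are described further on. Extra Pontin was compared with WT by the quasi-likelihood test of edgeR, with p adjusted over all genes by the Benjamini-Hochberg method. By that test 0 of the 81 members and 0 of the 13888 genes tested (0% called) passed an adjusted p of 0.05, and the smallest adjusted p of a member was 0.999. DESeq2 called 1 gene in the whole table and none of the members. At an unadjusted p under 0.05, edgeR had 285 genes and DESeq2 217. Before adjustment, no member had a p under 0.05 in either direction by edgeR or by DESeq2, while by edgeR 1.02% of all genes had one on the higher side and 1.03% on the lower side. The precision behind this was moderate: the standard error of a member's log2 fold change ran from 0.12 to 0.79 with a median of 0.16. Changes of that order, and larger ones, could not be told from none. For example, Dnajb14 at a log2 fold change of -0.31 (SE 0.15) had an unadjusted p of 0.065 by edgeR. The median log2 fold change of the members was 0.030, with 49 higher and 32 lower, against a median of 0.0013 over all genes tested.

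Most families had a fitted median close to 0. The median log2 fold change was -0.064 for the 13 HSP70 genes, and it was for the 3 HSP90 genes 0.055, the 24 tested Dnajc genes 0.0062, the 9 tested Dnajb genes 0.030 and the 4 Dnaja genes -0.037. Values were higher for 7 of the 8 small HSP genes tested (median 0.13) and for 6 of the 7 TRiC subunits tested (median 0.044), though no gene in either family passed the test, and over all genes tested 50.2% had higher values. Of the mitochondrial chaperonin genes, Hspe1 had a log2 fold change of 0.23 (SE 0.12) and Hspd1 -0.09 (SE 0.15). Of the BAG genes, which couple HSP70 to other partners, 5 of 6 had higher values, with a median of 0.039. Hsf1, the master regulator itself, measured 443, 384 and 480 normalised counts in the WT hearts and 482, 457 and 414 in Pontin cTG (log2 fold change 0.05, SE 0.13), and Hsf2 measured 247, 288 and 191 against 182, 203 and 246 (log2 fold change -0.20, SE 0.19). For both factors the groups overlapped.

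**Figure D2:**
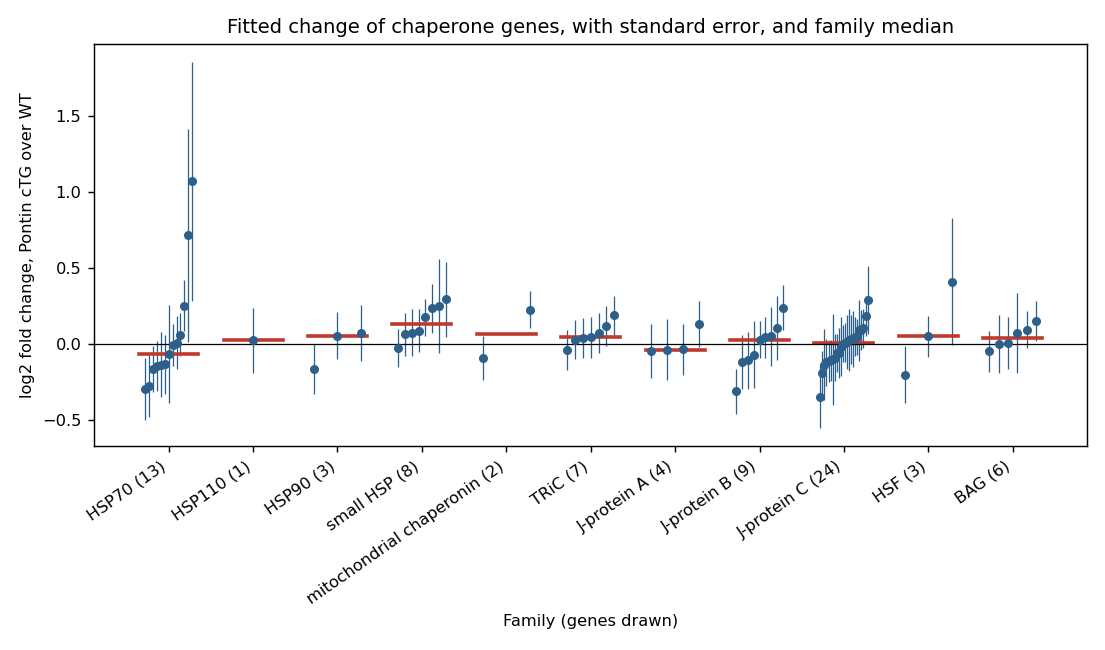
Fitted log2 fold change of Pontin cTG over WT for tested chaperone genes, by family, with bars of 1 standard error and the family median as a red line. Of the tested genes 1 is not drawn, the medians of the genes drawn lie between -0.064 and 0.13, and the 2 points with the widest bars are Hspa1b at 1.07 and Hspa1a at 0.72.

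The largest fold changes among the members belonged to Hspa1b and Hspa1a, and they rested on 1 heart. Hspa1b measured 50.7, 49.4 and 41.4 normalised counts in the WT libraries and 243, 25.7 and 31.2 in the Pontin cTG libraries. Hspa1a measured 35.2, 48.2 and 38.0 in WT and 155, 17.1 and 29.5 in Pontin cTG. For both genes Pontin cTG replicate 1 was several-fold above every other heart, while the other Pontin cTG hearts lay below all 3 WT hearts. The raw counts behind these values were 249 reads of Hspa1b and 159 of Hspa1a in Pontin cTG replicate 1, against at most 46 and 43 elsewhere. The fitted log2 fold changes were 1.07 (SE 0.79) for Hspa1b and 0.72 (SE 0.70) for Hspa1a, and without Pontin cTG replicate 1 they turned to -0.72 and -0.79. The exact two-sided permutation test of 3 against 3 values gave p = 1 for each, where the smallest possible p is 0.1.

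Set against the whole transcriptome, Hspa1b was the gene that most exceeded every other library in Pontin cTG replicate 1, ranking 1 of 13888 at 4.76 times the highest other library, and Hspa1a ranked 4 at 3.20 times. These ranks describe that heart and carry no test of genotype. The 2 genes are near copies, and 49.9% of the 100-base windows of the Hspa1b transcript occur in Hspa1a, so how reads were shared between them is uncertain. Their sum does not depend on how reads were divided between the copies, though reads dropped or counted more than once would alter it. The sum was 85.9, 97.6 and 79.4 normalised counts in the WT hearts and 398, 42.8 and 60.6 in Pontin cTG. This puts Pontin cTG replicate 1 at 4.08 times the highest other library. Both genes lie on the minus strand of chromosome 17 (Hspa1b at 35175412 to 35178214 and Hspa1a at 35188166 to 35191132, GRCm39), next to the testis-type gene Hspa1l on the plus strand (35191679 to 35198261). Hspa1l measured 45.2, 57.2 and 36.9 in WT and 57.6, 29.1 and 46.8 in Pontin cTG, so the top library was level with WT replicate 2.

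The upstream sequences of Hspa1a and Hspa1b each hold a match to the heat shock element, the sequence HSF1 binds, and are shown because these members had the largest excess of any in Pontin cTG replicate 1. The 250 bases before each annotated start are printed 5′ to 3′ in the direction of the gene (RefSeq, GRCm38.p6), with the heat shock element in capitals, here any GAANNTTC or TTCNNGAA, each of which is its own reverse complement.
Hspa1a (chr17:34972157-34972406, minus strand): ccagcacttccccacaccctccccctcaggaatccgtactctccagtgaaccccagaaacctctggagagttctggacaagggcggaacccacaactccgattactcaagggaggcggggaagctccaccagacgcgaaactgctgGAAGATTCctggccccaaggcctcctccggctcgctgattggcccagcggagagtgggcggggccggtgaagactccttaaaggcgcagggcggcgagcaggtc
Hspa1b (chr17:34959239-34959488, minus strand): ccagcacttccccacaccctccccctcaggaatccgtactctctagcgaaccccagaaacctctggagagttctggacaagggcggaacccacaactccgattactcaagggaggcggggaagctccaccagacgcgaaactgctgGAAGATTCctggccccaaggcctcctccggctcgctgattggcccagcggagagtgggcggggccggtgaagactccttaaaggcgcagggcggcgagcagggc
The stretches differ at 3 of 250 bases, and in each the element begins at base -104 from the start.

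For comparison, the stretch of Hsph1, which encodes an HSP110 nucleotide exchange factor for HSP70 and was also highest in that heart, is given in the same way, from the more upstream of its annotated starts.
Hsph1 (chr5:149636337-149636586, minus strand): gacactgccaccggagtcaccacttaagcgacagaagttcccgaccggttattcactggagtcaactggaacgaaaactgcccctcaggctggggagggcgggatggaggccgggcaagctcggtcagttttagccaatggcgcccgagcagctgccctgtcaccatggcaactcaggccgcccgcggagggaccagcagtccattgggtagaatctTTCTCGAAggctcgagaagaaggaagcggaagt
Here the element begins at base -33 from the start. Of the 95 members 75 had a promoter entry, a window of 250 bases before and 50 after the start, and the element with 2 units was found in 22 of those 75 (29.3%) against 16.97% of 27025 genes. Among the heat-inducible genes with an entry it was found in 7 of 8, namely Hspa1a, Hspa1b, Hsph1, Hspb1, Hspd1, Hspe1 and Bag3, and not in the windows of Dnajb1. The form with 3 adjoining units was in 5.33% of members (Dnajb6, Hspd1, Hspe1 and Hsph1) and 0.662% of all genes. The Hspd1 and Hspe1 windows that hold the element share 285 of their 300 bases, and the stretches of Hspa1a and Hspa1b are near copies. The counts of members with an element therefore rest on fewer separate sequences than genes. These are matches of letters only, and the heat-inducible genes were listed for being known to respond to heat.

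Other heat-inducible genes were highest in the same heart, by smaller margins. Dnajb1, the main inducible HSP40 partner of HSP70, measured 244, 233 and 247 normalised counts in the WT hearts and 359, 211 and 210 in Pontin cTG. Hsph1 measured 749, 848 and 795 in WT and 1127, 655 and 653 in Pontin cTG. Hsp90aa1, the inducible HSP90 gene, measured 2253, 2672 and 2257 against 3215, 2176 and 2164. In all 3 genes Pontin cTG replicate 1 lay above every other library and the other Pontin cTG hearts lay below every WT heart. Bag3, the HSF1-responsive partner of Hspb8, was also highest there, at 3572, 2616 and 3442 in WT and 3832, 2588 and 3222 in Pontin cTG, but within reach of WT replicate 1. Hspa8, constitutive and further raised by heat, reached 22764 in that heart, against 18101 to 19510 in the other 5. Pontin cTG replicate 1 was the highest library for 7 of the 10 heat-inducible genes fixed for naming.

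The exceptions among the heat-inducible genes were Hspb1, Hspd1 and Hspe1. Hspb1 measured 2434, 2071 and 2585 normalised counts in the WT hearts and 2999, 3037 and 2312 in Pontin cTG, so 2 transgenic hearts were above all WT hearts and the third was not (log2 fold change 0.24, SE 0.16). Hspd1, the mitochondrial chaperonin HSP60, measured 5764, 5962 and 5522 against 5488, 4676 and 5992, with no separation. Hspe1 is described further on.

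**Figure D3:**
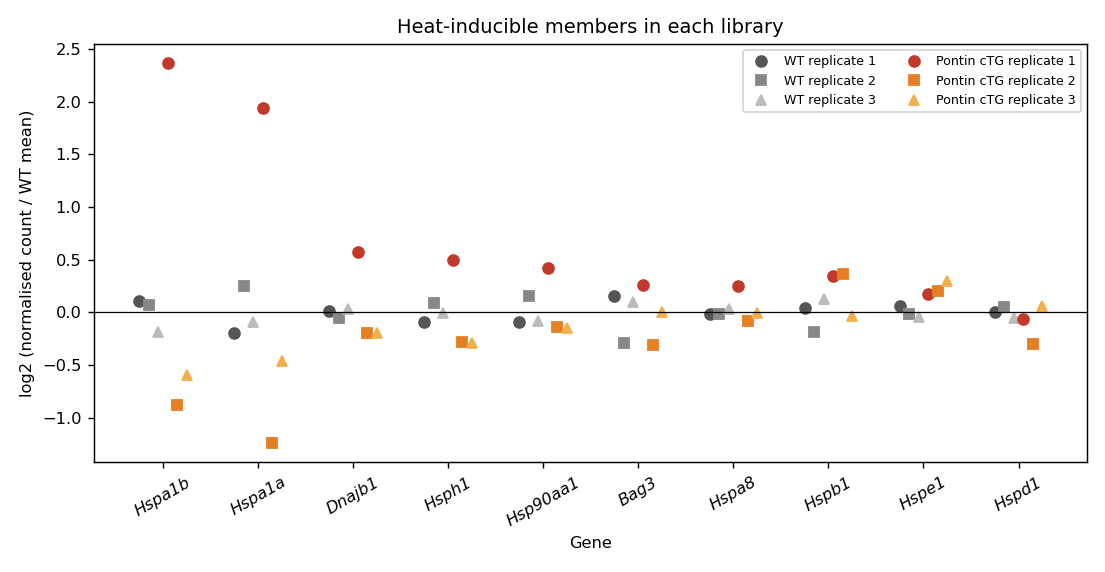
Log2 of normalised count over the WT mean for the 10 heat-inducible genes, 1 point per library. Pontin cTG replicate 1 (red circles) is above every other library for Hspa1b, Hspa1a, Dnajb1, Hsph1, Hsp90aa1, Bag3 and Hspa8, and the other Pontin cTG hearts are at or below WT for most of them.

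Across all 81 members, 7 (8.64%) were above the 95th percentile of all genes in Pontin cTG replicate 1, a level of 1.32 times the mean of the other 5 hearts: Hspa1a, Hspa1b, Hspa1l, Dnajb1, Dnaja1, Hsph1 and Hsp90aa1. No member was below the 5th percentile in that heart. Dnaja1, another J-protein partner of HSP70 and chosen here after its values were seen, measured 1016, 989 and 1037 in WT and 1348, 953 and 1033 in Pontin cTG. Pontin cTG replicate 1 was the highest library for 21 of the 81 members (25.9%), against 12.6% of all genes tested, and the lowest for 1 member. It was not the only such heart, since Pontin cTG replicate 3 was highest for 22 members (27.2%), against 18.3% of all genes tested. Among 24 listed co-chaperones of HSP90 and HSP70 only Fkbp5, an HSP90-binding immunophilin, passed the same 95th percentile, with 203, 220 and 296 in WT and 417, 208 and 169 in Pontin cTG.

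Genes outside the chaperone set moved with this heart as well. Thbs1, Egr3 and Ddit4, which respond to growth signals and cell stress and were chosen after their values were seen, ranked 2, 3 and 6 by the same measure. Thbs1 stood at 2694 in Pontin cTG replicate 1 against 197 to 626 in the others, Egr3 at 282 against 35.1 to 73.8, and Ddit4 at 1727 against 279 to 630. A fixed list of 7 immediate-early genes that mark tissue handling also differed in this heart, member by member. Fos (69.3 against 16.5 to 60.6 in the other 5), Fosb (18.6 against 1.12 to 7.71), Junb (392.5 against 161 to 271) and Ier2 (263 against 167 to 260) were highest there, while Jun was lowest (577 against 615 to 1108) and Atf3 (150 against 91.8 to 160) was not set apart. Egr1 measured 218, 229 and 221 in WT and 464, 259 and 478 in Pontin cTG. Of the 6 genes of this list that were tested, 4 had a higher value in Pontin cTG at an unadjusted p under 0.05. Over all genes tested that share was 1.02%, and no gene of the list passed after adjustment. Egr1 and Ier2 were higher in every Pontin cTG heart than in any WT heart, as were 4.7% of all genes tested. The part of these genes or of tissue handling in the chaperone values was not tested.

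The 4 ER chaperones fixed for naming were lowest in another heart. Hspa5 (BiP), the lead HSP70 of the ER, measured 8680, 8211 and 8050 normalised counts in the WT hearts and 9037, 5055 and 8591 in Pontin cTG. Dnajb9 (ERdj4), a BiP partner, measured 668, 596 and 675 against 662, 403 and 782. Dnajc3 (p58IPK), also a BiP partner, measured 960, 1005 and 946 against 1018, 726 and 994, and Hsp90b1 (GRP94), the HSP90 of the ER, measured 3718, 4294 and 3550 against 3789, 2819 and 3713. In all 4 genes Pontin cTG replicate 2 was the lowest library, and the other Pontin cTG hearts lay within or near the WT range. Over the 4 genes its median log2 deviation from the WT mean was -0.56, against 0.053 and 0.041 in the other Pontin cTG hearts. The fitted log2 fold changes ran from -0.16 for Hsp90b1 to -0.07 for Dnajb9, and without Pontin cTG replicate 2 that of Hspa5 turned to 0.085 and that of Dnajb9 to 0.16.

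The upstream stretch of Hspa5 is shown for its ER stress element, the class of site through which the unfolded protein response acts, searched as CCAAT, any 9 bases and CCACG on either strand and given in capitals (RefSeq, GRCm38.p6).
Hspa5 (chr2:34771840-34772089, plus strand): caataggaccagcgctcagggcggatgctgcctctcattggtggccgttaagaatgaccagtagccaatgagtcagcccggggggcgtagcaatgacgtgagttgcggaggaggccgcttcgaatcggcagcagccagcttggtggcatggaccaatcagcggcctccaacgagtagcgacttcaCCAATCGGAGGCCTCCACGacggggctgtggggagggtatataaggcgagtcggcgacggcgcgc
The element was found in the windows of 3 of the 4 named ER genes (Hspa5, Hsp90b1 and Dnajc3), which were the only members among the 75 with an entry to hold it (4.0%), against 0.137% of all genes. None of the 4 held the heat shock element. Of 12 other ER folding genes (such as Canx, Calr and the Pdia family) 4 were higher and 8 lower in Pontin cTG, none past the test. Of these 12, Sil1, Creld2, Serpinh1 and Pdia4 were not lowest in Pontin cTG replicate 2, and the rest were.

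**Figure D4:**
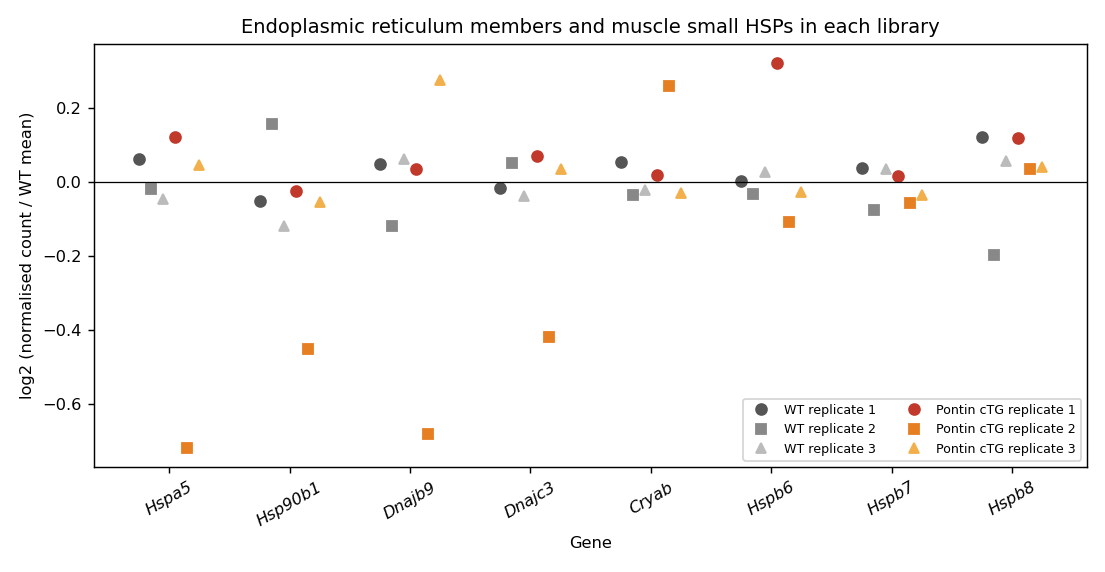
Log2 of normalised count over the WT mean for 4 ER chaperone genes and 4 muscle small HSP genes, 1 point per library. Pontin cTG replicate 2 (orange squares) is lowest for all 4 ER genes and highest for Cryab, and Pontin cTG replicate 1 (red circles) is highest for Hspb6.

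The same heart was low across much of the chaperone set. Pontin cTG replicate 2 was the lowest library for 41 of the 81 members (50.6%), against 30.7% of all genes tested. Its median deviation from the WT mean was -0.52 for the HSP70 genes, -0.39 for Dnaja, -0.37 for Dnajb and -0.23 for Dnajc, while small HSP genes stood at 0.22. Of the 4 genes with the smallest unadjusted p on the lower side, 3 were lowest there by a wide margin: Dnajc16 measured 618, 596 and 681 in WT and 621, 342 and 526 in Pontin cTG, Hspa4l, an HSP110-type gene, 1171, 1025 and 1188 against 1157, 641 and 956, and Hspa13 284, 387 and 312 against 308, 194 and 310. The remaining gene was Dnajb14, a J-protein of the ER membrane, with 423, 375 and 429 in WT and 387, 285 and 318 in Pontin cTG, a log2 fold change of -0.31 (SE 0.15). This is the library with the high Nppa count given above, and its endothelial marker sum was also the highest, at 14115 against 9864 to 11750. The part of tissue composition in these values was not tested, and in heart tissue fewer cells of a type and less RNA per cell cannot be told apart.

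**Figure D5:**
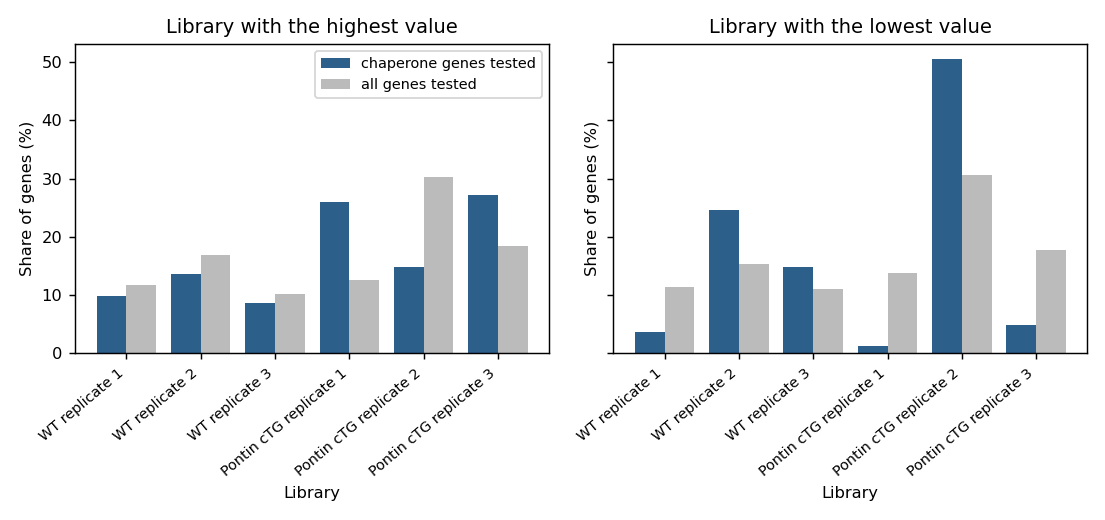
Share of genes (percent) for which each library held the highest value (left) or the lowest value (right), for the 81 chaperone genes tested (blue) and all genes tested (grey). Pontin cTG replicate 1 is highest for 25.9% of chaperone genes against 12.6% of all genes, and Pontin cTG replicate 3 for 27.2% against 18.3%. Pontin cTG replicate 2 is lowest for 50.6% against 30.7%.

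A few members were higher in every Pontin cTG heart than in any WT heart. This held for 6 of the 81 (7.41%), against 4.7% of all genes tested, and no member was lower in every heart, against 3.63% of all genes. Among the 6 were Hspe1, Hspa12b, Cct7, Bag1 and Hspb2, of which Bag1 and Hspb2 are named after their values were seen. Hspe1, the partner lid of HSP60, measured 1338, 1269 and 1248 in WT and 1453, 1475 and 1581 in Pontin cTG (log2 fold change 0.23, SE 0.12). Hspe1 and Hspd1 lie head to head on chromosome 1, where the table's annotation has them overlap by 112 bases, so reads in that stretch cannot be told apart without strand.

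Cct7, a subunit of TRiC, which folds actin and tubulin, measured 1521, 1644 and 1735 in WT and 1849, 1790 and 1950 in Pontin cTG (log2 fold change 0.19, SE 0.13). Bag1, a nucleotide exchange factor that links HSP70 to the proteasome, measured 2287, 2080 and 2344 against 2357, 2468 and 2641, with only a narrow gap between the groups. Hspa12b, a divergent HSP70 known from endothelial cells, measured 559, 552 and 562 against 571, 840 and 584, so most of its difference came from Pontin cTG replicate 2, where the endothelial marker sum was highest. Hspb2 measured 426, 385 and 412 against 427, 460 and 497, and since its gene overlaps Cryab on the opposite strand by 1030 bases, its reads cannot be cleanly told from those of Cryab in a count without strand. Dnajb2, a J-protein of neurons and muscle, was among the 4 smallest p values on the higher side but overlapped, at 1027, 951 and 1221 against 1382, 1096 and 1303. None of these genes passed the adjusted test. The exact permutation p of Hspe1, Hspa12b, Cct7, Bag1 and Hspb2 was 0.1 each, the smallest that 3 against 3 can give. Every gene whose groups do not overlap gives this value, so it adds nothing to the separation by which they were listed.

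The muscle small HSP genes were steady apart from single hearts. Cryab measured 17230, 16200 and 16354 normalised counts in the WT hearts and 16824, 19874 and 16252 in Pontin cTG, with Pontin cTG replicate 2 alone above the rest. Hspb6 measured 14484, 14143 and 14735 against 18055, 13422 and 14178, with Pontin cTG replicate 1 alone above the rest. Hspb7 measured 29809, 27593 and 29762 against 29358, 27915 and 28351, and Hspb8 measured 7062, 5667 and 6755 against 7046, 6656 and 6677, and for both the groups overlapped. The fitted log2 fold changes of these 4 genes ran from -0.03 for Hspb7 to 0.09 for Cryab, with standard errors of 0.13 to 0.15.

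Partners of these chaperones, taken from fixed lists, gave no call either, and their counts are to be read beside the 50.2% of all genes that had higher values and the 4.7% that were higher in every Pontin cTG heart. Of the 24 co-chaperones of HSP90 and HSP70, 20 had higher and 4 lower values (median log2 fold change 0.054), and 2 did not overlap between the groups, both higher. They were Stub1 (CHIP), the ubiquitin ligase that acts on HSP70 clients, at 422, 389 and 489 in WT and 518, 535 and 557 in Pontin cTG (log2 fold change 0.31, SE 0.13), and Nudc, an HSP90 co-chaperone, at 740, 750 and 758 against 863, 838 and 922 (log2 fold change 0.22, SE 0.12). The prefoldin subunits and Tcp1, which feed and complete TRiC, were higher for 6 of 7 genes (median 0.18), and of 10 mitochondrial folding and protease genes 7 were higher, with Clpp at 586, 536 and 597 against 675, 739 and 699 (log2 fold change 0.30, SE 0.12). Of the R2TP genes (Ruvbl1, Ruvbl2, Rpap3 and Pih1d1), 3 of 4 were higher. Among these was mouse Ruvbl1, the gene of Pontin itself, and the groups did not overlap for that gene alone. All of these genes had an adjusted p of at least 0.999.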

How the data were processed

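RNA-seq read counts per gene from 6 mouse hearts (3 Pontin cTG, 3 WT) were used as deposited. The authors deposited whole-number counts with no normalisation. The submitters' processing notes name fastp, HISAT2, featureCounts, DESeq2 and the build GRCm39 (mm39), while the study's methods name other tools and an earlier build. The gene positions in the table were not those of GRCm38 and are given here as GRCm39. Promoter sequences come from RefSeq on GRCm38.p6. No strand setting is given in the sources used here.

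The genes were chosen by symbol and biotype, and the members, lists and tests were chosen with earlier results of these data known. Genes were kept by edgeR's filterByExpr (minimum count 10), scaled by TMM and tested by the robust quasi-likelihood test (edgeR 4.0.16, R 4.3.3) with genotype as the term, adjusted by the Benjamini-Hochberg method over 13888 genes at 0.05. The method was tested on simulated data whose changes were larger than those fitted for nearly all members. That test therefore does not show whether changes as small as theirs would be called. Alternatives were DESeq2 1.42.0, other scalings and filters, a replicate block, and leaving out each library. TPM was computed from counts and the gene lengths in the table. Members named were the 8 most abundant in WT, the 4 with the smallest p in each direction, and fixed heat-inducible, muscle small HSP, ER and HSF genes. Shared sequence between copies was measured as 100-base windows of annotated transcripts. 1 member is counted but not reported by name here. The labels call the samples biological replicates and give no batch. Depth was 12436822 to 16888124 counts per library, and with 3 hearts a group the exact permutation test cannot go below p = 0.1.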

Additional observations from a re-analysis of the deposited data

How the results depend on the processing

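No alternative called a chaperone gene, and the smallest adjusted p of a member was 0.879 to 1.000. Across the table, edgeR called 0 genes, DESeq2 called 1, edgeR with no filter on low counts called 3, and leaving out a library gave 0 to 3, with 3 without Pontin cTG replicate 2. Same-numbered hearts were not treated as pairs (correlations of deviations 0.064, 0.43 and 0.18), and the replicate block called 0 members and 0 genes. The next counts are at an unadjusted p under 0.05 out of 81 members, with all genes in either direction in brackets. With library size alone 1 member (Hspe1) was higher (305 of 13888 genes), and with the block 2 members were lower (499 of 13888). Without Pontin cTG replicate 1, 4 members were lower (636 of 14211), and without Pontin cTG replicate 2, 3 were higher (686 of 13978). In place of 49 members with higher values, leaving out Pontin cTG replicate 1 gave 34 and leaving out Pontin cTG replicate 2 gave 60 (counts added after seeing the data). Without Pontin cTG replicate 1, 8 members were higher in every remaining Pontin cTG heart (10.7% of all genes were) and 11 lower (10.1%). Without Pontin cTG replicate 2, 13 were higher (11.0%) and 0 lower (10.5%). The cause of these shifts was not tested.

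Several small log2 fold changes changed sign. Bag3 was -0.0013 by DESeq2, -0.0042 with no filter and -0.0031 with the replicate block, Hspb7 was 0.0049 with library size alone, and with the block Hspa9 was -0.012 and Hsph1 -0.022. Over the libraries left out in turn, log2 fold changes ran as follows: Hsph1 -0.28 to 0.16, Hspb8 -0.025 to 0.13, Hspa9 -0.12 to 0.17, Bag3 -0.14 to 0.14, Hsf1 -0.033 to 0.14, Hspb7 -0.062 to 0.00027, Hspb6 -0.059 to 0.16, Hsp90ab1 -0.048 to 0.17, Hspa8 -0.036 to 0.13, Hspa1a -0.79 to 1.18, Hspa1b -0.72 to 1.53, Hsp90aa1 -0.13 to 0.17, Dnajb1 -0.19 to 0.24, Cryab -0.0046 to 0.15, Hspa5 -0.28 to 0.085, Dnajb9 -0.28 to 0.16, Dnajc3 -0.17 to 0.052. Medians ran from -0.038 to 0.085 for all members, -0.13 to 0.17 for HSP90, -0.26 to 0.050 for HSP70, -0.030 to 0.12 for BAG, -0.033 to 0.12 for HSF, -0.14 to 0.13 for Dnaja, -0.12 to 0.12 for Dnajb and -0.030 to 0.047 for Dnajc, so each of these turned sign; those of small HSP (0.092 to 0.16) and TRiC (0.027 to 0.12) did not.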
